A study of Mus musculus with 12 samples.

Results

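The 40 type I interferon-stimulated antiviral genes were followed by symbol and Ensembl identifier through all libraries of the series, 40 of the 47643 genes in the count files. The filter on low counts kept 39 of them, and Trim25, a ubiquitin ligase of the RNA-sensing pathway, was not tested because it had 2 counts in the 12 libraries together. The cells were C3H/10T1/2, a mouse embryonic line of fibroblast shape, transfected transiently without a virus and harvested 3 days later. The reference group received the plasmid pH_BMP2ADV, named for bone morphogenetic protein 2, and the other groups the hybrid plasmids pH_BMP2ADV20a, pH_BMP2ADV148b or pH_BMP2ADV590, whose names carry the numbers of miR-20a, miR-148b and miR-590. The prefix pH_ is left out from here on. Each group had 3 libraries. By its title, the series evaluates such vectors for the repair of bone. Every group was transfected and carried a BMP2 plasmid, and no untransfected or mock-transfected cells were analysed here, so the levels without a plasmid are not known. The labels give neither the share of cells transfected nor the cultures behind the replicates, so p-values measure only the spread between these libraries, which may be technical.

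Type I interferons, of which fibroblasts mainly make interferon beta, bind the receptor chains Ifnar1 and Ifnar2. The kinases Jak1 and Tyk2 then phosphorylate transcription factors such as Stat2, which joins Irf9 in a complex that binds interferon-stimulated response elements in the promoters of the induced genes. The proteins made from these genes interfere with the entry, translation, RNA and assembly of viruses, and sensors of foreign RNA and DNA switch the ligand on.

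The response element was sought in RefSeq promoter windows of the assembly GRCm38.p6. Its core was searched as GAAA, any 2 bases and GAAA on either strand, from 250 bases before to 50 bases after each annotated start, the start itself counted as 0. Matches may overlap each other. Of the members, 31 were matched to 38 windows, and 13 members held the core. It stood in 36.8% of the members' windows and in 3.44% of all 32851 windows. The members were listed as interferon-stimulated genes, so this difference can come from the list alone and says nothing about these libraries. Of the 30 members that differed among the groups (below 0.05 in edgeR's quasi-likelihood test with Benjamini-Hochberg adjustment, as were 6.25% of all tested genes), 21 had a window and 10 of these held the core. A match is a string of letters, not a measured binding site. The stretches of the 6 such members with the smallest p-values across the groups are shown on the strand of the gene, with the matches in capitals, where TTTC is GAAA read on the other strand.
Rsad2, chr12:26456533-26456602, minus strand: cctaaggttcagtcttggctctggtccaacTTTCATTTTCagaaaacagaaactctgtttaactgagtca
Ifit3b, chr19:34607739-34607842, plus strand: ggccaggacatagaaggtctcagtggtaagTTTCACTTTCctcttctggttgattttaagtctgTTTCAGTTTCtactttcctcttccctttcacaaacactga
Ifit3, chr19:34583343-34583446, plus strand: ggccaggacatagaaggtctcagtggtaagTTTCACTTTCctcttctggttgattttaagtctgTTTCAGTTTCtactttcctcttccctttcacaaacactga
Trim30a, chr7:104465190-104465259, minus strand: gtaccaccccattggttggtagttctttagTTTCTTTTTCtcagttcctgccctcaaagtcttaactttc
Ifit1, chr19:34640755-34640843, plus strand: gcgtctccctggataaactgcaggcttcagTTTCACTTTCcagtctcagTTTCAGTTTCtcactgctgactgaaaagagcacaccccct
Isg15, chr4:156200845-156200926, minus strand: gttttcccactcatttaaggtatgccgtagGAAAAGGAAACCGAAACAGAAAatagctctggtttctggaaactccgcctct

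The stretches of Ifit3 and Ifit3b, neighbouring paralogues, were identical over all 104 bases. In Isg15 the 3 matches ran into each other. The furthest match of a member lay 188 bases before the start, and the last began 19 bases after it. The 18 members whose windows held no match included called ones such as Sp100, Oasl2, Herc6, Parp12 and Ifi44.

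The miRNAs named by the plasmids are shown because their seeds, bases 2 to 8, in capitals, set which transcripts carry a complementary site. No source used here gives the arm made from each plasmid, and the mature sequences below are the RefSeq entries of the arms searched. For miR-590 none is shown.
miR-20a-5p, chr14:115044183-115044205, plus strand: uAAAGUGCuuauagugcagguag
miR-148b-3p, chr15:103285185-103285206, plus strand: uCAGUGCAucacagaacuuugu

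A site for miR-20a-5p stood in the longest annotated 3' untranslated region of 6 of the 39 tested members, 15.4%, against 15.6% of the 11591 tested genes that have such a region. These were Ifit1, Ifit3, Eif2ak2, Cmpk2, Samhd1 and Xaf1. None of them was called in BMP2ADV20a against BMP2ADV. Their log2 differences there were -0.35, -0.28, -0.09, -0.52, -0.05 and -0.43, in that order. Of the 39 tested members, 34 had a negative difference in this comparison. The members called in it, Mx1, Mx2 and Rsad2, held no such site. A site for miR-148b-3p stood in 4 of 39 members, 10.3%, against 17% of the tested genes, namely Adar, Samhd1, Xaf1 and Sp100. Of these, Sp100 was called higher in BMP2ADV148b than in BMP2ADV. That call (edgeR adjusted p = 0.0391) ended when any 1 of 7 libraries was left out and with the replicate block. The site of Sp100, in capitals, is shown as an example, and whether any site acts was not tested.
Sp100: ctacactctgTGCACTGacaagtcaga

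The libraries held 9236431 to 14727288 gene counts each. The 3 BMP2ADV148b libraries, with 9236431 to 9750598, were the shallowest. Records assigned to no gene made up 52.24% to 52.65% in BMP2ADV590 and 52.9% to 54.43% in the other groups, and mitochondrial transcripts 1.9% to 2.32% of gene counts in BMP2ADV590 against 1.68% to 1.96% elsewhere. The part of depth and of these shares in the results was not tested. Libraries were made by QuantSeq 3' sequencing, which reads transcript ends, so a count follows the number of transcripts and the level of a gene was set only against the same gene in other libraries. Levels are counts scaled to the library total, as CPM. All 10 mesenchymal fibroblast markers were tested, among them Col1a1 at a mean of 4969 CPM in BMP2ADV, and Vim, an intermediate filament gene, was the 1 marker of that list called in BMP2ADV590 against BMP2ADV, higher by 0.29 on the log2 scale (edgeR adjusted p = 0.00988). The call of Vim ended when only these 2 groups were fitted (edgeR adjusted p = 0.0677). Of 10 macrophage markers 4 were tested, Cd14, Cd68, Csf1r and Lyz2, and none was called in any comparison. Adgre1 and Tyrobp were at 0 and Ptprc, the pan-leukocyte antigen, had 5 counts in all. The summed level of that list was 6.79 to 7.42 CPM in BMP2ADV and 7.06 to 8.05 in BMP2ADV20a, against 8.51 to 11 in BMP2ADV148b and 6.18 to 7.60 in BMP2ADV590. It was thus highest in the BMP2ADV148b libraries. Cd14 was at 4.73 to 5.72 CPM in BMP2ADV148b and 2.78 to 4.6 in BMP2ADV, without overlap. Csf1r was at 1.59 to 2.15 and 0.37 to 1.48 CPM in these groups, also without overlap. The summed level of 4 endothelial markers was 5.22 to 6.35 CPM in BMP2ADV590 and 6.34 to 11.9 in the other groups, with Cdh5 at 0. That of 4 epithelial markers was 2.66 to 3.18 CPM in BMP2ADV148b, 1.16 to 2.11 in BMP2ADV590 and 1.68 to 2.91 in the other groups, with Krt8 at 0. In each of these lists 1 gene was tested and none was called. Endothelial Tek had a log2 difference of -0.68 in BMP2ADV590 minus BMP2ADV (edgeR adjusted p = 0.105) and epithelial Cdh1 one of -0.98 in BMP2ADV590 minus BMP2ADV148b (0.209), both without overlap. The part of these markers in the results was not tested. None of the 5 markers of plasmacytoid dendritic cells and lymphocytes was tested, and Nkg7 was at 0.

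The antiviral genes were highest in the cells that received the miR-148b hybrid and lowest in those that received the miR-590 hybrid. Of the 39 tested members, 32 had their highest group mean in BMP2ADV148b (82.1%, against 22.8% of all tested genes) and 30 their lowest in BMP2ADV590 (76.9% against 29.3%). The whole order BMP2ADV148b, BMP2ADV, BMP2ADV20a, BMP2ADV590 held for 23 members, 59.0% against 5.65% of all tested genes. The 3 BMP2ADV148b libraries lay above the other 9 for 18 members (46.2% against 1.14%), and the 3 BMP2ADV590 libraries below the other 9 for 7 (17.9% against 2.80%). These orders were chosen with results of the same libraries known, so the shares over all tested genes describe the members and test nothing. In the test of all groups at once, 30 of 39 members were called, where 6.25% of all 13229 tested genes were. Since bulk RNA was read, a change in the share of responding cells and a change of RNA per cell cannot be told apart. The members' expression also varied widely, from a mean of 1.14 CPM for Ifitm1 to 1830.2 CPM for Ifitm3, with 19 members above 100 CPM.

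**Figure D1:**
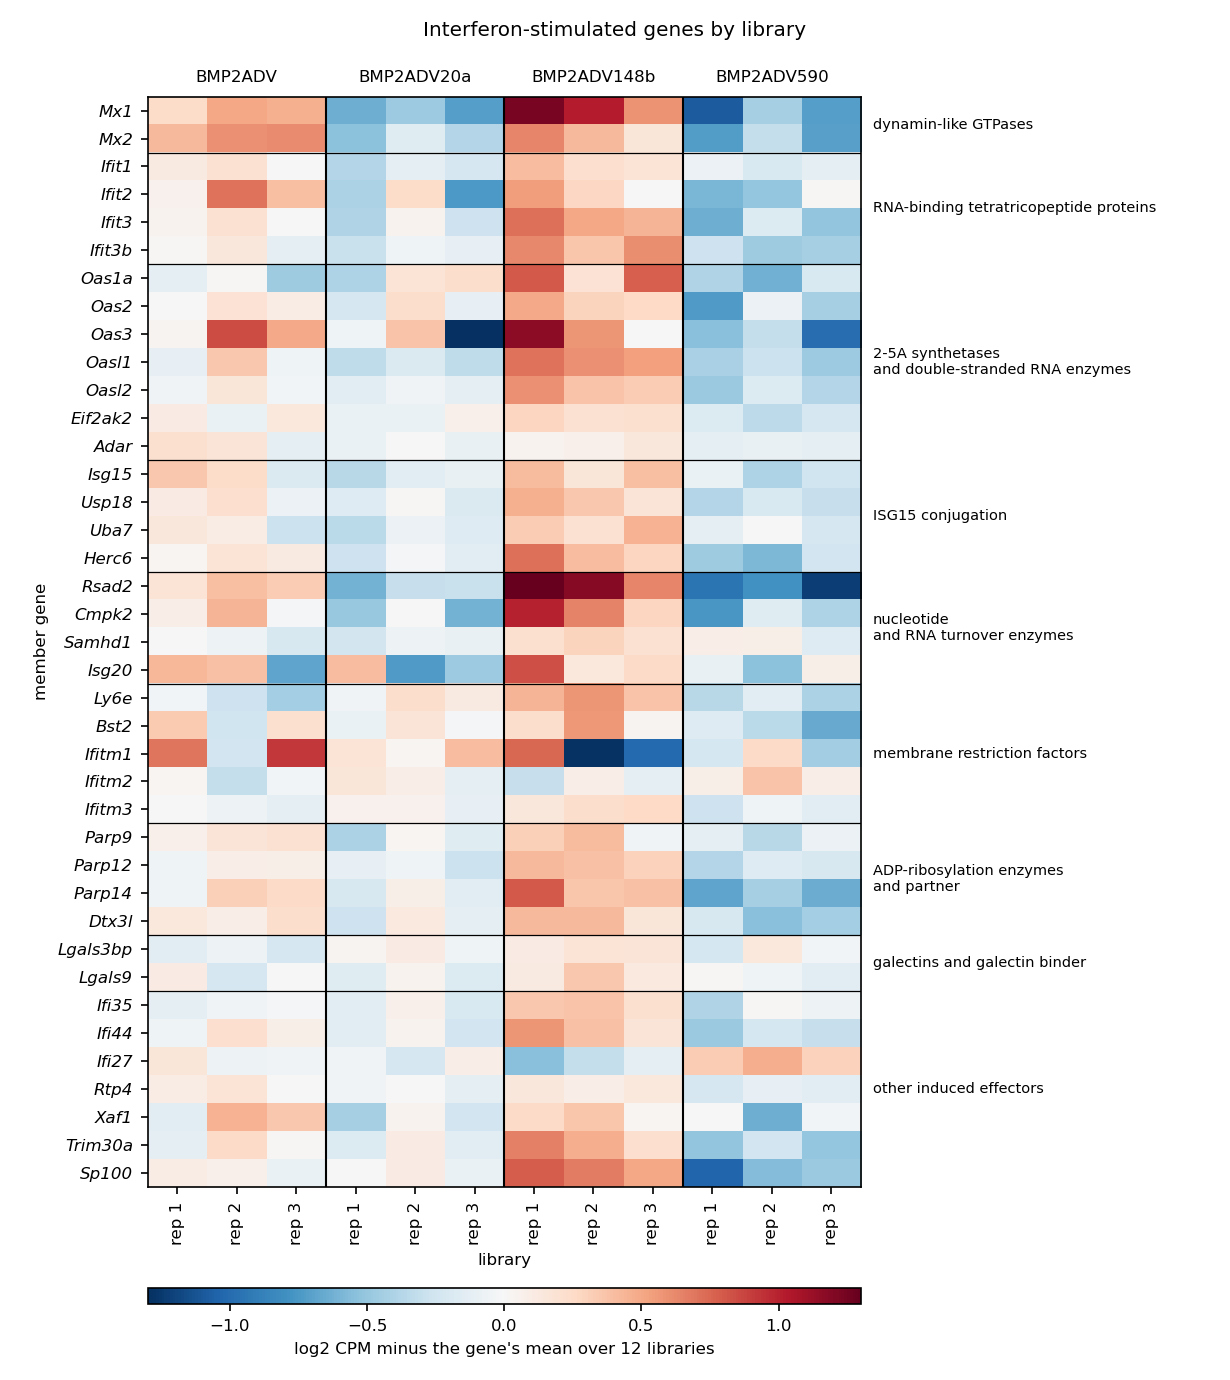
Colour gives the log2 CPM of each tested member (rows, ordered by role) minus that gene's mean over the 12 libraries (columns, by group). The BMP2ADV148b columns are mostly red and the BMP2ADV590 columns mostly blue, with Ifi27 in the opposite colours and Ifitm1, near 1 CPM, without a clear order. Ifitm2 also has its highest mean in BMP2ADV590 and its lowest in BMP2ADV148b.

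Per library, the median deviation of the 39 members from their own means was 0.06, 0.17 and 0.00 on the log2 scale in BMP2ADV. It was -0.18, 0.03 and -0.14 in BMP2ADV20a, 0.46, 0.36 and 0.21 in BMP2ADV148b, and -0.36, -0.23 and -0.26 in BMP2ADV590. Every BMP2ADV148b library thus lay above and every BMP2ADV590 library below all libraries of the other groups, while BMP2ADV and BMP2ADV20a overlapped through BMP2ADV20a replicate 2. The same median over all tested genes was 0.00 to 0.01 in each library. Together the members took 0.985% to 1.03% of gene counts in BMP2ADV148b, 0.755% to 0.864% in BMP2ADV, 0.702% to 0.796% in BMP2ADV20a and 0.672% to 0.702% in BMP2ADV590.

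**Figure D2:**
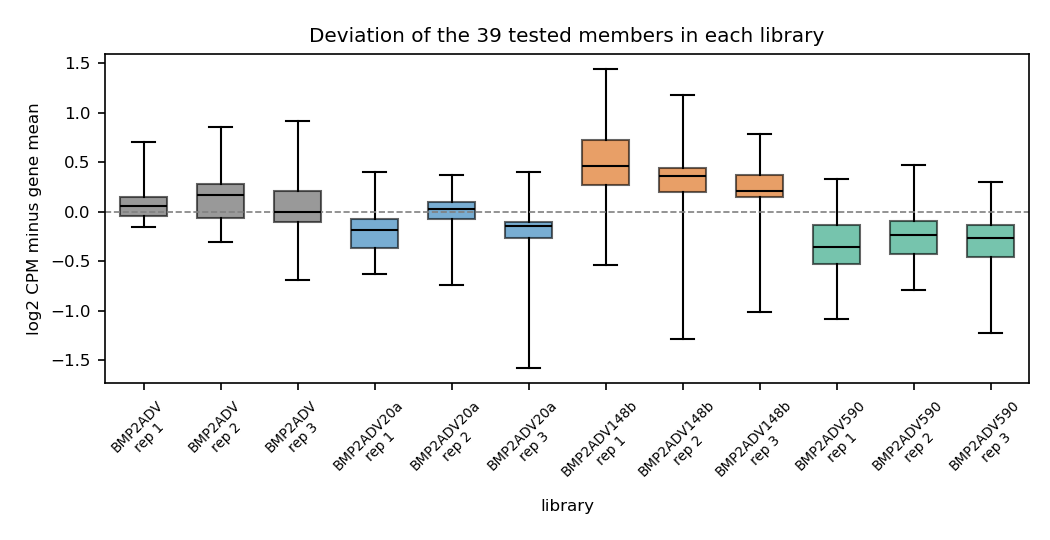
Boxes give the quartiles and median, and whiskers the full range, of the log2 deviation of 39 members from their own means in each of the 12 libraries. The medians run from -0.36 in BMP2ADV590 replicate 1 to 0.46 in BMP2ADV148b replicate 1.

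The comparison of the hybrids at the ends of this order, BMP2ADV590 minus BMP2ADV148b, called 28 members lower and 1, Ifi27, higher. Over all tested genes 1.97% were called lower and 2.46% higher. The median log2 fold change of the members was -0.64, against 0.00 over all tested genes, and the libraries of the groups did not overlap for 34 members that were lower, where 10.4% of all tested genes were lower without overlap. Of the 29 calls, 25 were kept whichever library was left out. The calls of Parp9, Uba7, Rtp4 and Bst2 ended without BMP2ADV148b replicate 2 (edgeR adjusted p = 0.0541 for Bst2). Those of the first 3 also ended without BMP2ADV148b replicate 1 or BMP2ADV590 replicate 1 or 3, those of Uba7 and Rtp4 without BMP2ADV148b replicate 3, and that of Parp9 without BMP2ADV590 replicate 2, BMP2ADV replicate 2 or BMP2ADV20a replicate 3 (up to 0.221). Fitting only the 2 groups compared ended the calls of Parp9, Uba7 and Rtp4. The replicate block ended those of Parp9 and Uba7, and limma-voom that of Parp9.

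Against the reference, 19 members were lower and Ifi27 was higher in BMP2ADV590, with 3.89% of all tested genes called lower and 4.37% higher in this comparison. The members' median log2 fold change was -0.40. Without BMP2ADV replicate 2 the count fell from 20 to 10, and without BMP2ADV590 replicate 3 to 12. In these fits 678 and 787 of all tested genes were called, against 578 higher and 515 lower with all libraries. The 8 calls that held whichever library was left out were those of Mx1, Mx2, Rsad2, Sp100, Herc6, Parp14, Dtx3l and Ifit3, all lower.

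In BMP2ADV148b 4 members were higher than in BMP2ADV, namely Ly6e, Rsad2, Sp100 and Ifit3b, and none was called lower, with 0.212% of all tested genes called higher and 0.0378% lower. The members' median log2 fold change was 0.30, with 23 of 39 below 0.05 before adjustment, as were 8.43% of all tested genes. The count was 1 to 2 without any 1 library of either group, where 3 to 20 of all tested genes were called. It was 7 without BMP2ADV590 replicate 1 or 2, where 45 and 60 of all tested genes were called. With all libraries 28 genes were called higher and 5 lower. The cause of these shifts was not tested. Ly6e was the call kept throughout. DESeq2 called 10 members higher here, among 82 genes called in all.

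In BMP2ADV20a 3 members, Mx1, Mx2 and Rsad2, were lower than in BMP2ADV and none was called higher, where 0.378% of all tested genes were called lower and 0.0983% higher. The members' median log2 fold change was -0.19. Mx1 and Mx2 kept their calls whichever library was left out, and the call of Rsad2 ended without any 1 of the 3 BMP2ADV or the 3 BMP2ADV20a libraries and without BMP2ADV148b replicate 2, at adjusted p-values of up to 0.218.

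Between the other pairs of hybrids, BMP2ADV148b minus BMP2ADV20a called 18 members higher and none lower, with 0.506% of all tested genes called higher and 0.0529% lower, and a members' median of 0.51. The count was 7 without BMP2ADV148b replicate 1, 8 without BMP2ADV20a replicate 1 and 9 without BMP2ADV20a replicate 3. In these fits 24, 22 and 42 of all tested genes were called, against 67 higher and 7 lower with all libraries. Mx1, Mx2, Rsad2, Ifit1, Ifit3, Ifit3b and Parp12 were called whichever library was left out. BMP2ADV590 minus BMP2ADV20a called Ly6e, Parp14 and Sp100 lower and Ifi27 higher, with 0.877% of all tested genes called lower and 1.29% higher, and a members' median of -0.16. That count ranged from 1 to 8 with 1 library left out. It was 1 without BMP2ADV20a replicate 2 or BMP2ADV590 replicate 1 or 3, 2 without BMP2ADV20a replicate 1 or 3, and 8 without BMP2ADV590 replicate 2. Calls over all tested genes ranged from 64 to 489 with 1 library left out, against 171 higher and 116 lower with all libraries. The call of Sp100 was the 1 kept throughout. The comparisons share libraries, so their counts are not independent of each other.

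**Figure D3:**
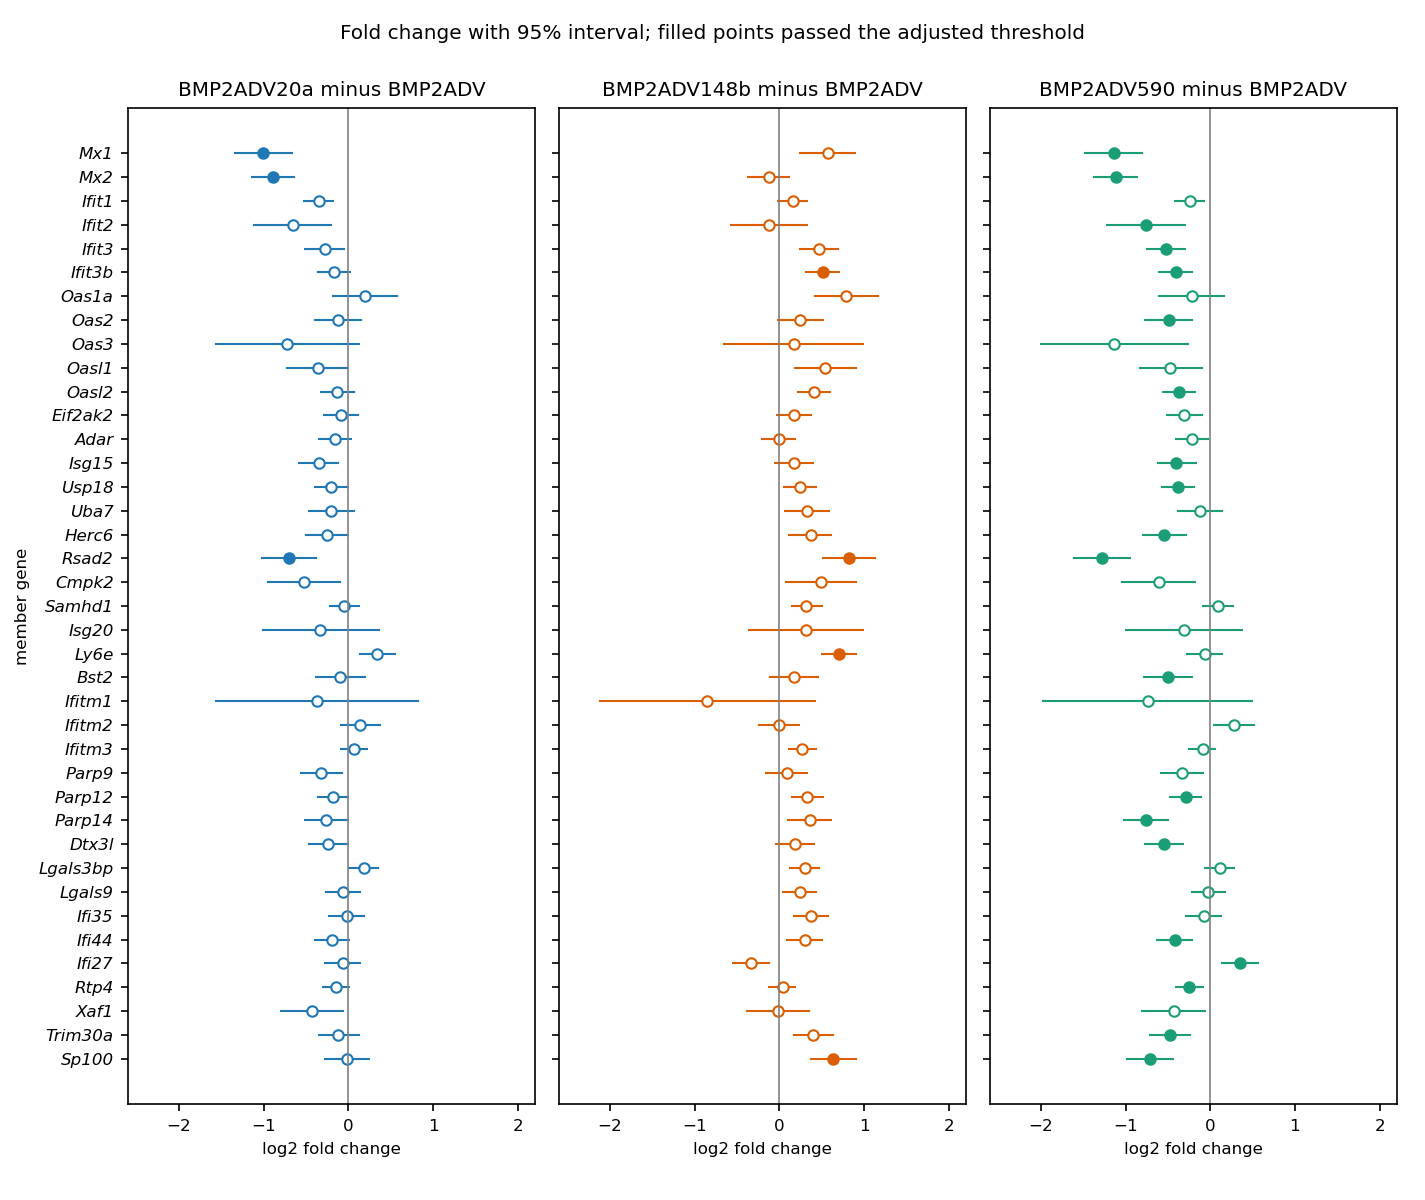
Points give the log2 fold change of each tested member in 3 hybrid groups minus BMP2ADV, lines the 95% interval computed from the edgeR F statistic, and filled points those called. In BMP2ADV590 the filled points lie left of 0 except Ifi27, in BMP2ADV148b the 4 filled points lie right of it, and in BMP2ADV20a the 3 filled points lie left of it.

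Rsad2 encodes viperin, a radical SAM enzyme that makes a chain-terminating nucleotide from CTP (ENSMUSG00000020641, chr12:26442746-26456452, minus strand, GRCm38). Its level was 48.7, 56.4 and 53.7 CPM in BMP2ADV, 28.0, 34.7 and 35.1 in BMP2ADV20a, 117, 97.6 and 66.3 in BMP2ADV148b, and 22.1, 24.8 and 18.3 in BMP2ADV590. The libraries of the 4 groups did not overlap, in the order BMP2ADV148b, BMP2ADV, BMP2ADV20a, BMP2ADV590. The log2 fold change against BMP2ADV was 0.82 ± 0.149 (SE) in BMP2ADV148b, -0.70 ± 0.154 in BMP2ADV20a and -1.28 ± 0.159 in BMP2ADV590, with edgeR adjusted p-values of 0.0178, 0.0355 and 1.56e-05. The call in BMP2ADV148b ended without any 1 BMP2ADV library and without BMP2ADV148b replicate 1 or 2, at adjusted p-values of up to 0.139. That in BMP2ADV20a ended without any 1 of the 7 libraries named above (up to 0.218), with limma-voom and with the replicate block, and that in BMP2ADV590 held throughout. Between the ends of the order the change was -2.10 (95% interval -2.43 to -1.78). The neighbouring and divergently transcribed Cmpk2, a mitochondrial nucleotide kinase 12.8 kb away, averaged 16.5 ± 2.89 CPM (SD, n = 3) in BMP2ADV and 11.4 ± 2.75 in BMP2ADV20a, against 23.2 ± 5.76 in BMP2ADV148b and 10.8 ± 2.23 in BMP2ADV590. It was called in BMP2ADV590 minus BMP2ADV148b (-1.10, edgeR adjusted p = 0.00177) but in no comparison with BMP2ADV. Samhd1, which degrades deoxynucleotides, was 177 ± 11.3 CPM in BMP2ADV20a and 229 ± 7.70 in BMP2ADV148b, a call that ended without any library of either group or BMP2ADV replicate 2 (adjusted p up to 0.377). The replicate block ended this call too. Isg20, an RNA exonuclease with group means of 4.37 to 6.86 CPM, was not called.

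Mx1 and Mx2 belong to a family of dynamin-like GTPases that includes proteins that block virus replication. Whether the alleles of this line make working proteins was not tested. They stand 72.4 kb apart at chr16:97447035-97560900, and the annotation lists Mx2 as a polymorphic pseudogene. Mx1 (ENSMUSG00000000386) was at 31.3, 37.3 and 36.4 CPM in BMP2ADV, 17, 19.1 and 16.0 in BMP2ADV20a, 62.4, 53.7 and 39.7 in BMP2ADV148b, and 12.4, 19.5 and 16.0 in BMP2ADV590. BMP2ADV20a and BMP2ADV590 overlapped at the bottom, BMP2ADV lay between, and BMP2ADV148b was apart at the top. The Mx1 difference of 0.57 in BMP2ADV148b against BMP2ADV was not called (edgeR adjusted p = 0.163). Mx1 fell by 1.01 ± 0.162 on the log2 scale in BMP2ADV20a and by 1.14 ± 0.164 in BMP2ADV590 against BMP2ADV (edgeR adjusted p = 0.0022 and 8.18e-05). The difference between those hybrids was -0.13, with a 95% interval of -0.48 to 0.22. Mx2 (ENSMUSG00000023341) was at 125, 141 and 143 CPM in BMP2ADV, 64.5, 83.6 and 71.5 in BMP2ADV20a, 144, 125 and 104 in BMP2ADV148b, and 56.3, 75.1 and 57.0 in BMP2ADV590. Here BMP2ADV and BMP2ADV148b overlapped above the other groups, and the difference between these was -0.12 (95% interval -0.37 to 0.12). Mx2 fell by 0.89 ± 0.122 in BMP2ADV20a and by 1.11 ± 0.123 in BMP2ADV590 (edgeR adjusted p = 0.000642 and 4.76e-06). The share of Mx reads lost to multiple alignment is not known.

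The Ifit genes, whose tetratricopeptide proteins bind viral RNA and block its translation, lie together at chr19:34550694-34650009. Ifit3 (ENSMUSG00000074896) was at 729.6, 809 and 711 CPM in BMP2ADV, 539, 728 and 586 in BMP2ADV20a, 1160, 998 and 954 in BMP2ADV148b, and 454, 620.3 and 493 in BMP2ADV590. BMP2ADV148b stood above all other libraries, and BMP2ADV20a overlapped BMP2ADV and BMP2ADV590. The Ifit3 difference of 0.47 in BMP2ADV148b against BMP2ADV was not called (edgeR adjusted p = 0.0796). Ifit3 fell by 0.52 ± 0.11 in BMP2ADV590 against BMP2ADV (edgeR adjusted p = 0.00349). Ifit3b (ENSMUSG00000062488) was at 161, 176 and 146 CPM in BMP2ADV, 130.1, 152 and 147 in BMP2ADV20a, 244, 203 and 241 in BMP2ADV148b, and 132, 115 and 118 in BMP2ADV590. The BMP2ADV148b libraries were again apart from the rest, and the BMP2ADV590 libraries lay below those of BMP2ADV but overlapped BMP2ADV20a. Ifit3b rose by 0.52 ± 0.0929 in BMP2ADV148b and fell by 0.40 ± 0.0936 in BMP2ADV590 (edgeR adjusted p = 0.0178 and 0.00767). The rise was not called once BMP2ADV148b replicate 1 or 3 or BMP2ADV replicate 1 or 3 was left out (up to 0.187), nor the fall once BMP2ADV replicate 2 was (0.0582). Ifit1 averaged 680.5 ± 47.5 CPM in BMP2ADV and 535 ± 48.2 in BMP2ADV20a, against 762 ± 63.1 in BMP2ADV148b and 575 ± 24.7 in BMP2ADV590. It was called in BMP2ADV148b minus BMP2ADV20a (0.51, edgeR adjusted p = 0.00204) and in BMP2ADV590 minus BMP2ADV148b (-0.41, 0.00339). Ifit2 was at group means of 13.2 to 22.2 CPM and was called in BMP2ADV590 against BMP2ADV alone (-0.76, edgeR adjusted p = 0.0354), a call that ended without BMP2ADV replicate 2 or 3 or BMP2ADV590 replicate 1 or 2 (up to 0.201) and with the replicate block. Paralogues such as Ifit3 and Ifit3b were measured through the reads that told them apart.

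**Figure D4:**
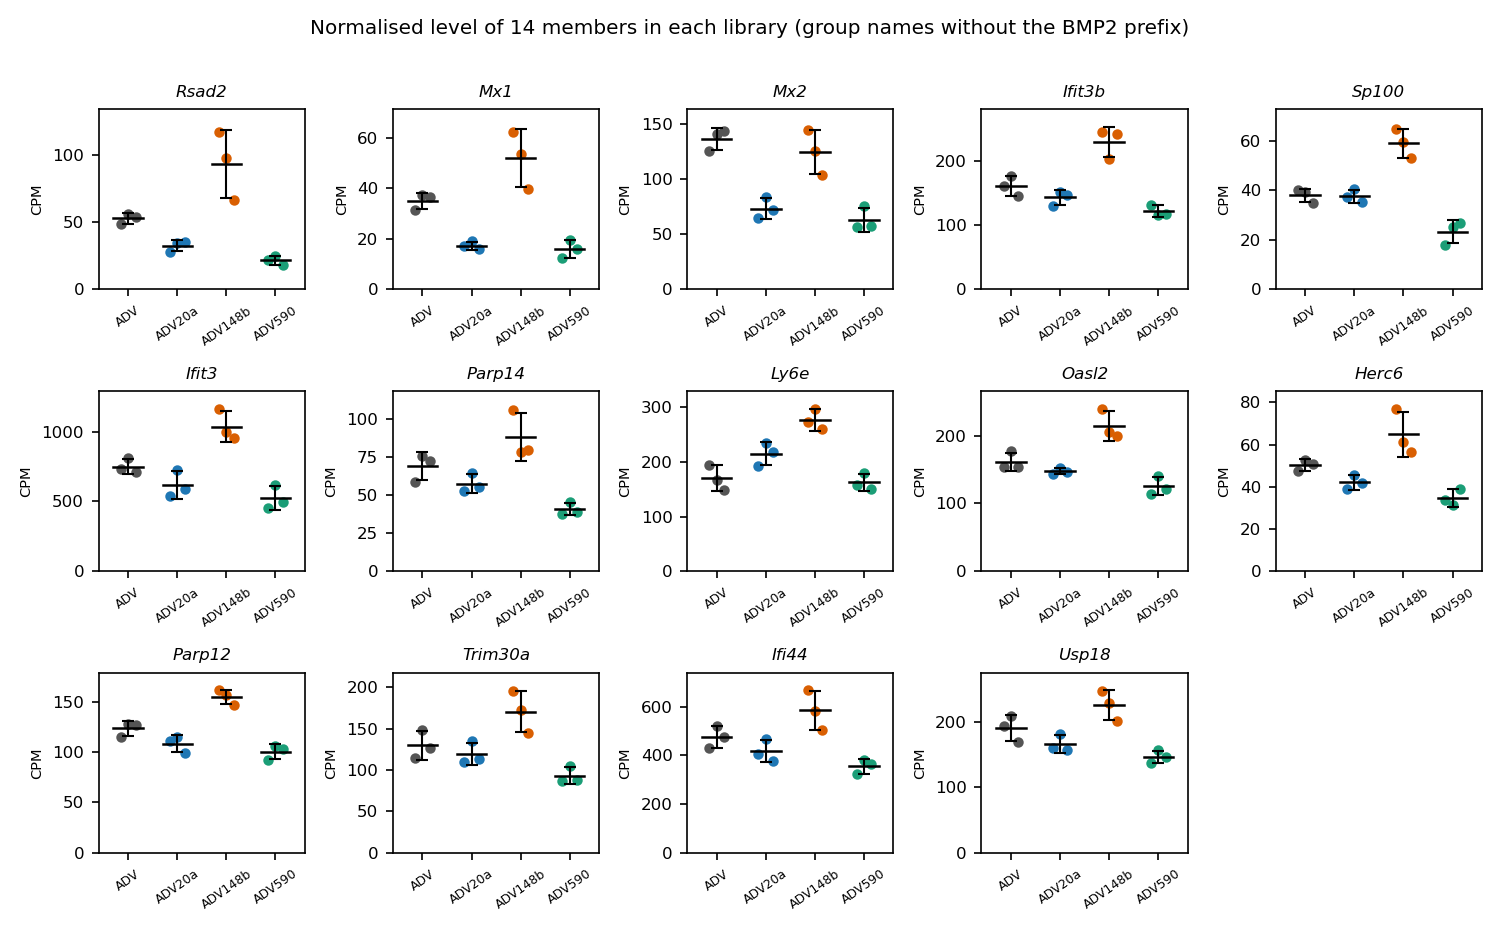
Points give the CPM of 14 members in each library, with the group mean and SD as black bars and axes that start at 0. The BMP2ADV148b mean is highest in each panel except Mx2, and the BMP2ADV590 mean is lowest in each.

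Among genes of the response to double-stranded RNA, Oasl2, an oligoadenylate synthetase-like protein (ENSMUSG00000029561, chr5:114896936-114912234, plus strand), was at 154, 177 and 154 CPM in BMP2ADV, 144, 153 and 146 in BMP2ADV20a, 239.8, 205 and 199 in BMP2ADV148b, and 114, 139.9 and 122 in BMP2ADV590. The groups did not overlap in the order BMP2ADV148b, BMP2ADV, BMP2ADV20a, BMP2ADV590. Neither the Oasl2 difference of 0.41 in BMP2ADV148b against BMP2ADV (edgeR adjusted p = 0.0563) nor that of -0.13 in BMP2ADV20a (0.674) was called. Oasl2 fell by 0.37 ± 0.0921 in BMP2ADV590 against BMP2ADV (edgeR adjusted p = 0.0131), a call lost without BMP2ADV replicate 2 or BMP2ADV590 replicate 1 or 3 (up to 0.0849). Its change in BMP2ADV590 minus BMP2ADV148b was -0.78 (edgeR adjusted p = 1.17e-05). Oas1a and Oas2 make the oligoadenylates that switch on RNase L. Oas1a averaged 19.7 ± 3.25 CPM in BMP2ADV and 34.3 ± 7.61 in BMP2ADV148b, a difference of 0.79 (95% interval 0.42 to 1.17) that missed the threshold (edgeR adjusted p = 0.0678). Oas2 fell from 86.5 ± 5.19 CPM in BMP2ADV to 61.6 ± 14.1 in BMP2ADV590 (-0.49, edgeR adjusted p = 0.0192), a call lost without BMP2ADV replicate 2 or 3 or BMP2ADV590 replicate 1 or 3 (up to 0.0979). Oasl1, which in mouse restrains Irf7 translation, had means of 11.6 CPM in BMP2ADV and 9.02 in BMP2ADV20a, against 16.9 in BMP2ADV148b and 8.37 in BMP2ADV590 and was called between the last pair (-1.01, edgeR adjusted p = 0.000861). Eif2ak2, the kinase PKR that stops translation, was 67.9 ± 2.25 CPM in BMP2ADV148b and 48.7 ± 2.76 in BMP2ADV590 (-0.48, edgeR adjusted p = 0.00361). Oas3, at 2.04 to 5.06 CPM, and Adar, the RNA adenosine deaminase, at 70.4 to 81.3 CPM, were called in no comparison. For Adar the difference between BMP2ADV148b and BMP2ADV was 0.00 (95% interval -0.20 to 0.19).

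The ISG15 system attaches a ubiquitin-like protein to its targets. Usp18, the protease that removes ISG15 and that also damps the interferon receptor (ENSMUSG00000030107, chr6:121245906-121270917, plus strand), was at 194, 208 and 169 CPM in BMP2ADV, 159.6, 181 and 157 in BMP2ADV20a, 247, 228 and 201 in BMP2ADV148b, and 137, 156 and 146 in BMP2ADV590. The BMP2ADV590 libraries were below all others, while BMP2ADV overlapped its other neighbours. Usp18 fell by 0.38 ± 0.0931 in BMP2ADV590 against BMP2ADV (edgeR adjusted p = 0.0107), a call lost without BMP2ADV replicate 2 (0.072). Herc6, the ISG15 ligase of mouse (ENSMUSG00000029798, chr6:57581000-57664632, plus strand), was at 47.4, 52.8 and 50.7 CPM in BMP2ADV, 38.7, 45.7 and 42.0 in BMP2ADV20a, 76.7, 61.4 and 56.4 in BMP2ADV148b, and 33.8, 31.1 and 39.1 in BMP2ADV590. The BMP2ADV148b libraries were highest and apart, and BMP2ADV lay above BMP2ADV20a and BMP2ADV590, which overlapped. In BMP2ADV148b the Herc6 difference of 0.37 against BMP2ADV was not called (edgeR adjusted p = 0.282). Herc6 fell by 0.54 ± 0.12 in BMP2ADV590 against BMP2ADV (edgeR adjusted p = 0.00579). Isg15 itself fell from 884 ± 165 CPM to 672 ± 72.7 in that comparison (-0.40, edgeR adjusted p = 0.0245) although its libraries overlapped, and the call ended without BMP2ADV replicate 1 or 2 or BMP2ADV590 replicate 2 or 3 (up to 0.142). The call of Isg15 also ended when only the 2 groups compared were fitted. Uba7, the activating enzyme, was 41.9 ± 3.67 CPM in BMP2ADV148b and 30.6 ± 2.28 in BMP2ADV590, a call that 5 of the 6 libraries of these groups could end when left out (edgeR adjusted p up to 0.155), all but BMP2ADV590 replicate 2. The replicate block and a fit of only the 2 groups compared ended it too.

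Of the factors that act at membranes, Ly6e is a surface protein that limits coronavirus entry (ENSMUSG00000022587, chr15:74955051-74959905, plus strand). Its level was 195, 167 and 148 CPM in BMP2ADV, 193, 235 and 218 in BMP2ADV20a, 273, 298 and 259.9 in BMP2ADV148b, and 157, 180.4 and 151 in BMP2ADV590. BMP2ADV148b was apart at the top, BMP2ADV20a lay next and overlapped BMP2ADV by 1 library, and BMP2ADV and BMP2ADV590 overlapped below. Ly6e rose by 0.70 ± 0.0994 in BMP2ADV148b against BMP2ADV (edgeR adjusted p = 0.00188). In BMP2ADV20a the difference was 0.34 (95% interval 0.14 to 0.55, edgeR adjusted p = 0.165) and in BMP2ADV590 -0.06 (-0.27 to 0.14). Bst2, which tethers budding virions, fell from 248 ± 51.2 CPM in BMP2ADV to 176 ± 29.6 in BMP2ADV590 (-0.50, edgeR adjusted p = 0.0244), a call lost without BMP2ADV replicate 1 or 3 or BMP2ADV590 replicate 3 (up to 0.15) and under DESeq2. Of the Ifitm genes, which make membranes resist fusion, Ifitm3 was 2113 ± 83.7 CPM in BMP2ADV148b and 1636 ± 117 in BMP2ADV590 (-0.37, edgeR adjusted p = 0.00288). Ifitm2, with means of 92.4 to 113 CPM and its highest in BMP2ADV590, and Ifitm1, at 0.859 to 1.57 CPM, were not called.

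The Parp genes encode ADP-ribosyltransferases, and Dtx3l the ubiquitin ligase partner of Parp9. Parp14 (ENSMUSG00000034422, chr16:35832874-35871544, minus strand) was at 58.5, 75.5 and 72.5 CPM in BMP2ADV, 52.7, 64.3 and 55.2 in BMP2ADV20a, 106, 78.4 and 79.6 in BMP2ADV148b, and 37.8, 45.2 and 38.9 in BMP2ADV590. BMP2ADV148b was above and BMP2ADV590 below every other library, with an overlap between BMP2ADV and BMP2ADV20a. In BMP2ADV148b the Parp14 difference of 0.36 against BMP2ADV was not called (edgeR adjusted p = 0.355). Parp14 fell by 0.76 ± 0.126 in BMP2ADV590 against BMP2ADV (edgeR adjusted p = 0.000347). Parp12 (ENSMUSG00000038507, chr6:39086410-39118349, minus strand) was at 115, 128 and 127 CPM in BMP2ADV, 111, 115 and 98.7 in BMP2ADV20a, 161, 156 and 147 in BMP2ADV148b, and 91.8, 106 and 103 in BMP2ADV590. Again BMP2ADV148b was apart at the top, and BMP2ADV590 overlapped BMP2ADV20a. The Parp12 difference of 0.33 in BMP2ADV148b against BMP2ADV was not called (edgeR adjusted p = 0.143). Parp12 rose by 0.51 ± 0.0863 in BMP2ADV148b against BMP2ADV20a (edgeR adjusted p = 0.00307). Its fall of 0.29 in BMP2ADV590 against BMP2ADV (edgeR adjusted p = 0.0367) lost the call without BMP2ADV replicate 2 or 3 or BMP2ADV590 replicate 1 or 3 (up to 0.139). That call was also lost with the replicate block and when only the 2 groups compared were fitted. Dtx3l fell from 85.7 ± 4.37 CPM in BMP2ADV to 58.7 ± 6.91 in BMP2ADV590 (-0.54, edgeR adjusted p = 0.00247). Parp9, whose exons overlap those of Dtx3l on the opposite strand, was 83.8 ± 3.90 and 66.5 ± 6.56 CPM in the same groups and was not called there (-0.33, edgeR adjusted p = 0.0857). The strand setting of the counts is not given, so reads of such overlapping exons cannot be assigned with certainty, and 13 members have exons that overlap another gene.

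Sp100, a scaffold of nuclear bodies that silence viral genomes (ENSMUSG00000026222, chr1:85649988-85709998, plus strand), was at 39.9, 39.1 and 35 CPM in BMP2ADV, 37.1, 40.3 and 35.1 in BMP2ADV20a, 64.7, 59.3 and 52.9 in BMP2ADV148b, and 18.1, 25.2 and 26.7 in BMP2ADV590. BMP2ADV148b was highest and BMP2ADV590 lowest without overlap, and BMP2ADV and BMP2ADV20a lay on each other between them, with a difference of -0.02 (95% interval -0.28 to 0.24). Sp100 rose by 0.63 ± 0.127 in BMP2ADV148b and fell by 0.71 ± 0.132 in BMP2ADV590 against BMP2ADV (edgeR adjusted p = 0.0391 and 0.00105). The rise lost its call without any 1 library of the groups compared or BMP2ADV20a replicate 1 (up to 0.245), and with the replicate block. Trim30a, which in mouse restrains inflammatory signalling (ENSMUSG00000030921, chr7:104409025-104465193, minus strand), was at 114, 148 and 127 CPM in BMP2ADV, 109.9, 135 and 113 in BMP2ADV20a, 195, 172 and 145 in BMP2ADV148b, and 87.1, 105 and 87.8 in BMP2ADV590. BMP2ADV590 was below every other library, and BMP2ADV overlapped BMP2ADV20a and, by 1 library, BMP2ADV148b. Trim30a fell by 0.47 ± 0.114 in BMP2ADV590 (edgeR adjusted p = 0.01), a call lost without BMP2ADV replicate 2 or BMP2ADV590 replicate 3 (up to 0.0806).

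Ifi44, an induced cytoplasmic protein (ENSMUSG00000028037, chr3:151730922-151749960, minus strand), was at 430.4, 521 and 475 CPM in BMP2ADV, 406, 466 and 377 in BMP2ADV20a, 667, 583 and 506 in BMP2ADV148b, and 322, 382 and 364 in BMP2ADV590. BMP2ADV148b overlapped BMP2ADV through its lowest library, and BMP2ADV590 overlapped BMP2ADV20a. Ifi44 fell by 0.42 ± 0.0997 in BMP2ADV590 against BMP2ADV (edgeR adjusted p = 0.00921), a call lost without BMP2ADV replicate 2 (0.0646). Ifi27, a small hydrophobic protein, was the 1 member called higher in BMP2ADV590. It averaged 129 ± 11.6 CPM in BMP2ADV and 123 ± 13.2 in BMP2ADV20a, against 102 ± 14.8 in BMP2ADV148b and 164 ± 10.0 in BMP2ADV590. The BMP2ADV590 libraries were above all others. Ifi27 rose by 0.69 in BMP2ADV590 against BMP2ADV148b (edgeR adjusted p = 0.000208). Its rise of 0.35 against BMP2ADV (edgeR adjusted p = 0.0329) ended without BMP2ADV replicate 2 or 3, without any BMP2ADV590 library (up to 0.153), without composition scaling and with the replicate block. Rtp4, a receptor chaperone, Ifi35 and Xaf1 had group means of 276 to 336, 99.7 to 136 and 19.3 to 26.2 CPM, and Xaf1 was called in no comparison. Among galectin genes, Lgals9 was at 133 to 163 CPM and Lgals3bp, whose product binds galectins, at 559 to 689 CPM. Neither passed the threshold in any comparison.

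The rest of the pathway was measured with lists of 11 ligands, 9 receptors and kinases, 13 signalling factors, 16 sensors and adaptors and 30 other induced genes. Of the ligands 1 was tested, Ifnb1, which encodes interferon beta, with 200 counts in all libraries. It was at 2.51, 2.5 and 1.88 CPM in BMP2ADV, 0.349, 1.2 and 0.561 in BMP2ADV20a, 3.37, 1.91 and 1.05 in BMP2ADV148b, and 1.76, 0.448 and 0.300 in BMP2ADV590. BMP2ADV lay above BMP2ADV20a and BMP2ADV590, and BMP2ADV148b spread across these. No comparison called it (edgeR adjusted p = 0.32 for -1.70 in BMP2ADV20a and 0.176 for -1.38 in BMP2ADV590), and the intervals were wide, -2.96 to -0.43 and -2.62 to -0.14. Ifnk had 56 counts in all, and the 5 listed Ifna genes had 0 to 3 each.

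Of 8 tested receptors and kinases, Jak2, a kinase of the interferon gamma receptor, was the 1 called, higher in BMP2ADV590 than in BMP2ADV (0.52, edgeR adjusted p = 0.003). Jak2 was also called higher in BMP2ADV590 than in BMP2ADV148b (0.50, 0.00612) and BMP2ADV20a (0.43, 0.0338). The last call ended without replicate 1 or 3 of either group and when only these 2 groups were fitted. Of all tested genes, 4.37%, 2.46% and 1.29% were called higher in these comparisons, in that order. Ifnar1, Ifnar2, Jak1 and Tyk2 were not called in any comparison. Of 12 signalling factors, 2 fell in BMP2ADV590 against BMP2ADV, 1 fell in BMP2ADV20a and none was called in BMP2ADV148b. Of all tested genes, 3.89% fell in BMP2ADV590 and 0.378% in BMP2ADV20a. The 2 became 4 without BMP2ADV590 replicate 2. Irf1, a transcription factor of interferon and inflammatory genes, was at 65.8, 66.0 and 53.2 CPM in BMP2ADV, 38.6, 39.7 and 35.6 in BMP2ADV20a, 64.0, 60.8 and 51.2 in BMP2ADV148b, and 29.3, 26.7 and 28.5 in BMP2ADV590. BMP2ADV and BMP2ADV148b overlapped above BMP2ADV20a, and BMP2ADV590 was lowest. Irf1 fell by 0.70 ± 0.111 in BMP2ADV20a and by 1.13 ± 0.114 in BMP2ADV590 (edgeR adjusted p = 0.00197 and 1.3e-06). Socs3, a feedback inhibitor, fell by 0.66 in BMP2ADV590 (edgeR adjusted p = 0.00726). In BMP2ADV590 minus BMP2ADV148b 5 factors fell, among them Irf1 (-1.06), Irf7 (-0.73) and Stat2 (-0.42), the last of which lost its call without BMP2ADV148b replicate 1 (edgeR adjusted p = 0.0666), where 3 factors were called. With all libraries 1.97% of all tested genes fell in this comparison.

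Of 11 tested sensors and adaptors, 3 fell in BMP2ADV590 against BMP2ADV, and 5 in BMP2ADV590 against BMP2ADV148b, where 3.89% and 1.97% of all tested genes fell. The 3 became 0 without BMP2ADV replicate 2 or 3, and 1 without BMP2ADV590 replicate 1 or 3. The 5 were 4 or 5 whichever library was left out. None was called in BMP2ADV20a or BMP2ADV148b against BMP2ADV. Zbp1, a sensor of left-handed nucleic acid, was 17.3 ± 1.79 CPM in BMP2ADV and 15.1 ± 4.59 in BMP2ADV20a, against 25.2 ± 6.01 in BMP2ADV148b and 9.82 ± 2.40 in BMP2ADV590. Between BMP2ADV590 and BMP2ADV148b it changed by -1.37 (edgeR adjusted p = 0.000303), and Tlr3, Ifih1 and Ddx58, which sense RNA, changed by -0.63, -0.70 and -0.39. Of 28 other induced genes, 11 fell in BMP2ADV590, 4 fell in BMP2ADV20a and 5 rose in BMP2ADV148b against BMP2ADV, and 23 fell in BMP2ADV590 against BMP2ADV148b. Over all tested genes 3.89% and 0.378% fell, 0.212% rose and 1.97% fell in these comparisons. The 23 ranged from 19 to 23 with each library left out. The 11 became 7 without BMP2ADV590 replicate 3. The 4 became 0 without BMP2ADV replicate 2 or BMP2ADV20a replicate 1 or 3, 1 without BMP2ADV replicate 1 or 3, and 2 without BMP2ADV148b replicate 2. The 5 became 0 without BMP2ADV replicate 1 or 3 or BMP2ADV148b replicate 2, 1 without BMP2ADV148b replicate 1 or 3, 2 without BMP2ADV20a replicate 3 or BMP2ADV590 replicate 3, and 3 without BMP2ADV20a replicate 1 or 2. Cxcl10, a chemokine for T cells, was 49.5 ± 6.25 CPM in BMP2ADV and 26.3 ± 5.72 in BMP2ADV20a, against 86.3 ± 30.1 in BMP2ADV148b and 23.9 ± 0.879 in BMP2ADV590. Its change in BMP2ADV590 minus BMP2ADV148b was -1.85 (edgeR adjusted p = 1.07e-06).

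**Figure D5:**
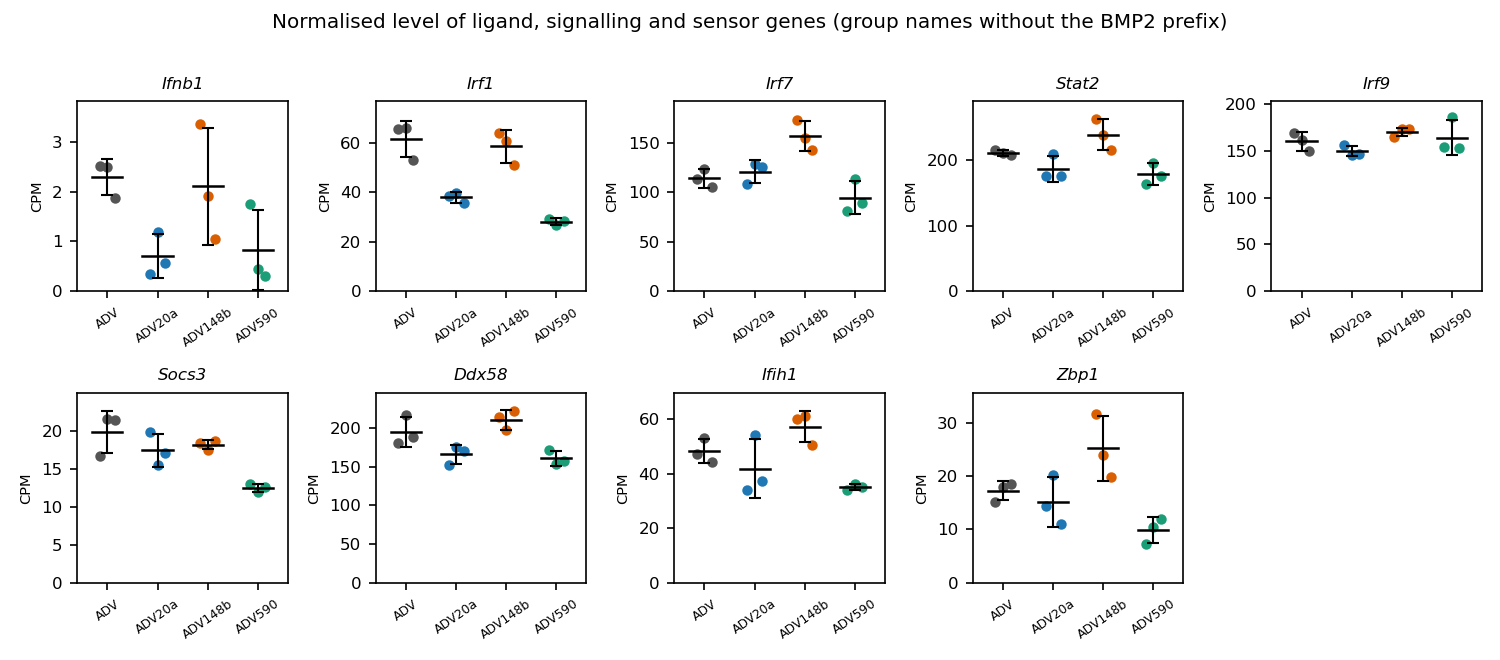
Points give the CPM of the ligand gene Ifnb1, 5 signalling genes and 3 sensor genes in each library, with the group mean and SD as black bars and axes that start at 0. Irf1 is low in BMP2ADV20a and lowest in BMP2ADV590, while the spread of Ifnb1 within BMP2ADV148b and BMP2ADV590 is as wide as the difference between groups.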

How the data were processed

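Total RNA of 12 libraries was sequenced with the QuantSeq 3' mRNA FWD kit, per the labels' protocols. The authors deposited whole-number read counts per gene for each library. Per the submitters' processing notes FastQC 0.11.5, STAR 2.5.2a, HTSeq 0.6.0, DESeq2 3.11 and the build GRCm38 were used. No source used here gives the strand setting, the counting mode or the annotation release. Records assigned to no gene, 52.24% to 54.43% per library, stayed out of library sizes and tests.

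Counts were tested with edgeR 4.0.16 in R 4.3.3 by a quasi-likelihood fit of all 12 libraries with 1 mean per group, after TMM scaling and edgeR's default filter, which kept 13229 genes. Genes below 0.05 after Benjamini-Hochberg adjustment over all of them were called. CPM were computed from the deposited counts with TMM-scaled library sizes. The 14 members with the smallest p-value across the groups are given library by library. The members, the pathway and marker lists and the tests were chosen with earlier results of these data known. Alternatives were other scalings, no filter, DESeq2 1.42.0, limma-voom with limma 3.58.1, a replicate block, fits of only the 2 groups compared and each library left out. The fits were tested on simulated data.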

Additional observations from a re-analysis of the deposited data

How the results depend on the processing

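No call of a member reversed under any alternative. Of 78 calls over the pairwise comparisons, 44 were kept whichever library was left out and 63 under every other setting. The number of members called in BMP2ADV20a minus BMP2ADV was 3, and 7 without a filter on low counts. In BMP2ADV148b minus BMP2ADV it was 4, against 14 without the filter, 10 with DESeq2, 7 when only the 2 groups were fitted, and 1 to 7 with each library left out. It was 20 in BMP2ADV590 minus BMP2ADV, with a range of 10 to 20, and 18 in BMP2ADV148b minus BMP2ADV20a, with a range of 7 to 21, when each library was left out. In BMP2ADV590 minus BMP2ADV20a it was 4, against 8 without the filter, 2 with the replicate block and 1 to 8 with each library left out. Calls over all genes moved as well. Without the filter there were 184 in BMP2ADV20a minus BMP2ADV, 126 in BMP2ADV148b minus BMP2ADV and 519 in BMP2ADV590 minus BMP2ADV20a. With it, 13 genes were called higher and 50 lower, 28 and 5, and 171 and 116 in these comparisons, in that order. Removing the filter also changes which genes are tested. The cause of these shifts was not tested.

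With the replicate number as a block, 2, 3, 16, 17, 2 and 27 members were called in BMP2ADV20a, BMP2ADV148b and BMP2ADV590 minus BMP2ADV, BMP2ADV148b and BMP2ADV590 minus BMP2ADV20a, and BMP2ADV590 minus BMP2ADV148b. Calls over all tested genes with the block were 36, 14, 905, 58, 172 and 460, in that order. Libraries with the same number did not deviate together (correlations across genes of -0.113 to 0.071, 0 of 18 pairs over 0.1), so the numbers were not taken to pair the libraries. Ifnb1 had 200 counts in all and Ifitm1 stood near 1 CPM, and the part of depth in their spread was not tested.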

Other observations

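Libraries of the same group also differed from each other across the members. In BMP2ADV20a, 35 of 39 members were above their own group mean in replicate 2, against 8 in replicate 1 and 12 in replicate 3. In BMP2ADV148b the numbers were 30, 21 and 9 in replicates 1, 2 and 3, in BMP2ADV 19, 30 and 17, and in BMP2ADV590 14, 28 and 17. Of all tested genes, 49.6% to 53.7% were above their own group mean in each library.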
